A study of Mus musculus with 4 samples.

Results

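Mouse Schwann cells of the immortalized line IMS32 were exposed for 1 h to 15 mM glucose without pyruvate, and gene expression was compared with that of cells given the same glucose together with 1 mM pyruvate. Schwann cells are the glia of peripheral nerves. The comparison took the genes with at least 1 probe well above background on both of these arrays, which were 21886 of the 31093 gene names carried by the array. Of these, 13908 had at least 1 probe with an unscaled signal over 200 on either array, and they are called genes with signal over 200. The description is weighted towards them. The printed signal of a gene averages its probes, so it can lie under 200 in this set. All cells were kept in DMEM with fetal bovine serum, and the pair compared is written [Glc 15 mM/Pyr (+)] and [Glc 15 mM/Pyr (−)]. Cells at 5 mM glucose with 1 mM pyruvate, [Glc 5 mM/Pyr (+)], or without it, [Glc 5 mM/Pyr (−)], give values beside them. Where 4 signals follow a gene, their order is 5 mM glucose with and without pyruvate, then 15 mM glucose with and without pyruvate. Each condition was measured on 1 one-colour array, so there are no replicates, no difference has a replicate check, no p-value is given and the number of arrays limits the precision. The cells are 1 immortalized line. Between 28473 and 30347 of 39429 probes were well above background on each array, and no spot was saturated.

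Exogenous pyruvate enters the mitochondria to feed the TCA cycle and can also be reduced to lactate in the cytosol, a step that regenerates NAD+ for glycolysis. Cells answer many kinds of acute stress within an hour through immediate-early genes, which are transcribed from factors already present in the cell, and through ATF4, a transcription factor whose translation rises when the initiation factor eIF2 is phosphorylated. Transcripts with short half-lives respond first in such a time window. The values below are signals scaled to a common 75th percentile, and a difference is log2 of [Glc 15 mM/Pyr (−)] over [Glc 15 mM/Pyr (+)], so that a difference of 1 is 2-fold.

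Without pyruvate, 51 genes with signal over 200 were at least 2-fold higher (0.367% of 13908) and 81 were at least 2-fold lower (0.582%). The higher genes were led by the growth factor Fgf18, the hypoxia-responsive gene Ankrd37 and the immediate-early gene Fos. Among lower genes with a plain symbol were the nuclear non-coding RNAs Malat1 and Neat1, and 72 of the 81 lower genes were known only by clone, predicted-gene or accession-type names. Of the 51 higher genes, 30 had a plain symbol. The same 13908 genes between the arrays at 5 mM glucose gave 2 genes 2-fold higher (0.0144%) and 2 lower (0.0144%). These were Rmnd5a and Zbtb11os1 on the higher side and Abat and Cyp2r1 on the lower side. The signal minimum was applied to the 15 mM arrays only. A gene could therefore enter through a 15 mM array where it was high, but not through a 5 mM array. Over all 21886 measured genes, 217 were 2-fold higher and 256 lower at 15 mM glucose, beside 134 and 144 at 5 mM glucose. The 15 mM and 5 mM pairs share no array. The SD of the difference over genes was 0.25 in the 15 mM pair and 0.12 in the 5 mM pair. On each 15 mM array, probes over 200 that were printed 10 times had a median SD of 0.06 between spots, and the error of a difference from spots alone was 0.087. That error leaves out the variation between cultures.

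**Figure D1:**
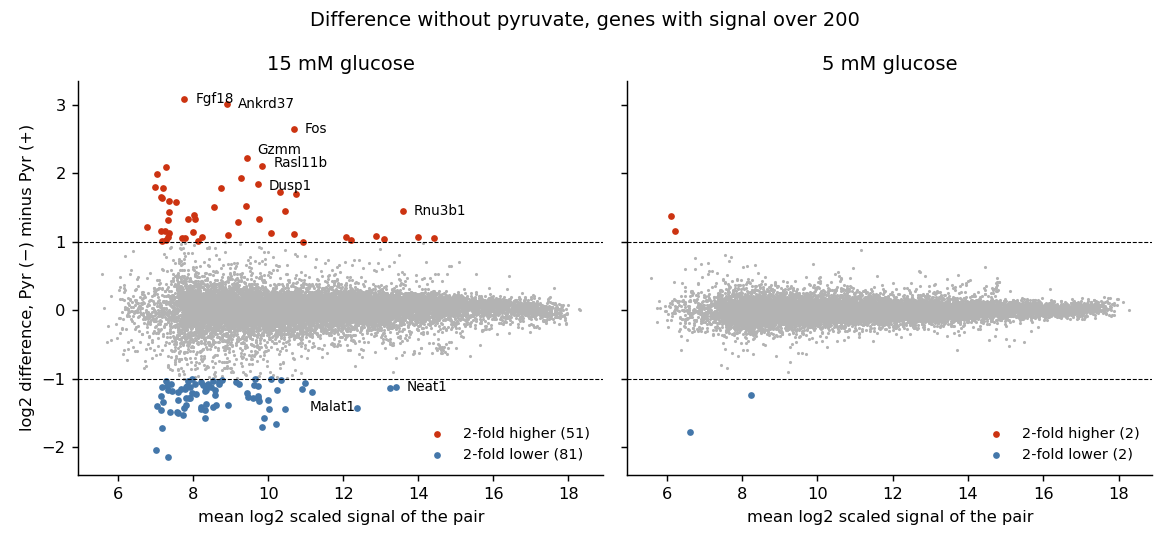
Log2 difference without pyruvate (vertical axis) against the mean log2 scaled signal of the pair (horizontal axis) for 13908 genes, at 15 mM glucose on the left and 5 mM glucose on the right; dashed lines mark 2-fold. At 15 mM glucose 51 genes lie above the upper line and 81 below the lower line, and at 5 mM glucose 2 lie above and 2 below. The genes were chosen by their signal on the 15 mM arrays.

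The promoters of 6 genes that were 2-fold higher are shown because each holds a short element linked to a stress pathway. They are the 250 bases before the gene's start in RefSeq (GRCm38.p6), 5′ to 3′ on the strand of the gene. Capitals mark the cyclic AMP response element TGACGTCA in Dusp1 (chr17:26508473-26508722, minus strand), Btg2 (chr1:134079156-134079405, minus strand) and Ppp1r15a (chr7:45526269-45526518, minus strand). They mark TGATGNAA on either strand, the core of the composite element of CHOP and ATF4, in Chac1 (chr2:119350992-119351241, plus strand) and Atf3 (chr1:191183334-191183583, minus strand). In Hspa1a (chr17:34972157-34972406, minus strand) they mark the heat shock element GAANNTTC.
Dusp1: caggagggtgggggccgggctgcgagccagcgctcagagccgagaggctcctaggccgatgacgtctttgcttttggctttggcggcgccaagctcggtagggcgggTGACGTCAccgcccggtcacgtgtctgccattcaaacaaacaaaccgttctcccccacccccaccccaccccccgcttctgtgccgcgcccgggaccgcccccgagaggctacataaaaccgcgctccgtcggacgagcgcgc
Btg2: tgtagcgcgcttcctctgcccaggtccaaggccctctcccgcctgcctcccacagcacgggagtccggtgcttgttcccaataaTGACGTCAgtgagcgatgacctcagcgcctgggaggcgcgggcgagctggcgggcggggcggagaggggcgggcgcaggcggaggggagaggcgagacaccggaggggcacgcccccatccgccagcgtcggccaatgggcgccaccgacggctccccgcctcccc
Ppp1r15a: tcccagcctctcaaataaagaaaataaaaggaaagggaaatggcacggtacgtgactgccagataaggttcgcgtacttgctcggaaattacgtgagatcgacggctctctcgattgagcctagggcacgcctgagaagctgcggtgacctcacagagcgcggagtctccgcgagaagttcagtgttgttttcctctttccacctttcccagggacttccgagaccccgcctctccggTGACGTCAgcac
Chac1: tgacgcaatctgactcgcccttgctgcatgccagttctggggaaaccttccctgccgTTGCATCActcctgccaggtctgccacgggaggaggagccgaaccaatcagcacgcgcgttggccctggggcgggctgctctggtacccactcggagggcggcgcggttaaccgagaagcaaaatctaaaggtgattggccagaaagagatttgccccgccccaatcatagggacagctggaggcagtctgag
Atf3: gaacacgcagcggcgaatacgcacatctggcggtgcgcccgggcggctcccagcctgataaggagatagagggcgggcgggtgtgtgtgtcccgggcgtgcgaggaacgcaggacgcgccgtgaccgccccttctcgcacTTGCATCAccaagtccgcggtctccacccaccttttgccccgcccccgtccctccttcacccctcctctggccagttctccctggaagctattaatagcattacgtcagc
Hspa1a: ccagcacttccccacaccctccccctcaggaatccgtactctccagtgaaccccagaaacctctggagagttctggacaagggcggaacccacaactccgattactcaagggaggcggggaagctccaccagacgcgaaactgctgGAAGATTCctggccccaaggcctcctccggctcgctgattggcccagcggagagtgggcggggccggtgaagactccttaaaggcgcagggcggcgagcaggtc
Motifs were searched on both strands in windows from 250 bases before to 50 after the start, and 29 of the 51 higher genes had such a window. TGACGTCA was found in 4 of the 29 (13.8%; the fourth was Arl4d), beside 3.74% of 9003 genes with signal over 200 and 2.03% of all 27025 genes with a promoter. TGATGNAA was found in 3 of the 29 (10.3%; Atf3, Chac1 and Slc23a3), beside 2.62% and 4.51%. GAANNTTC was found in 4 of the 29 (13.8%), beside 6.84% and 9.04%, and in 7 of 10 heat shock chaperones that had a window. CACGTG, the E-box of MondoA and USF factors, was found in 3 of the 29 (10.3%; Dusp1, Gdf15 and Gzmm), beside 12.0% and 8.09%. TATAAA, searched on the forward strand only, was found in Fos and Ppp1r15a (6.9%), beside 5.45% and 9.77%. The NF-kB site was found in Fos alone (3.45%), beside 6.12% and 5.14%, and the CArG box of SRF in 0 of the 29, beside 1.62% and 1.81%. None of the 6 matches in capitals overlapped a match of another motif. These are matches of letters in a window and say nothing about binding.

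The largest difference was that of Fgf18, a secreted fibroblast growth factor. Its signal, the geometric mean of 2 probes on chromosome 11, was 72.4 and 110.2 with and without pyruvate at 5 mM glucose, and 74.4 and 631 with and without pyruvate at 15 mM glucose. The array with high glucose and no pyruvate stood alone, at 8.48-fold over its pyruvate control. Both probes were higher there, by 2.52 and 3.65. The difference of the gene fell to 2.18 at lowest under alternative settings. Ankrd37, an ankyrin repeat gene induced in hypoxia, had signals of 157, 259, 168 and 1360.15 in the same order, a difference of 3.02. Its nearest array was again [Glc 5 mM/Pyr (−)], where the difference from the pyruvate control was 0.73. Fos, the AP-1 subunit, had signals of 1010.3, 758, 658 and 4116, a difference of 2.65. For Fos the 5 mM arrays ran the opposite way, with a difference of -0.41. Gzmm, named for a serine protease of cytotoxic lymphocytes, had signals of 258, 408, 318 and 1490.3, a difference of 2.23. Rasl11b, a small Ras-like GTPase, had 406, 498, 442 and 1898, a difference of 2.10. In each of these genes 1 array was high and the other 3 lay within a far smaller range.

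**Figure D2:**
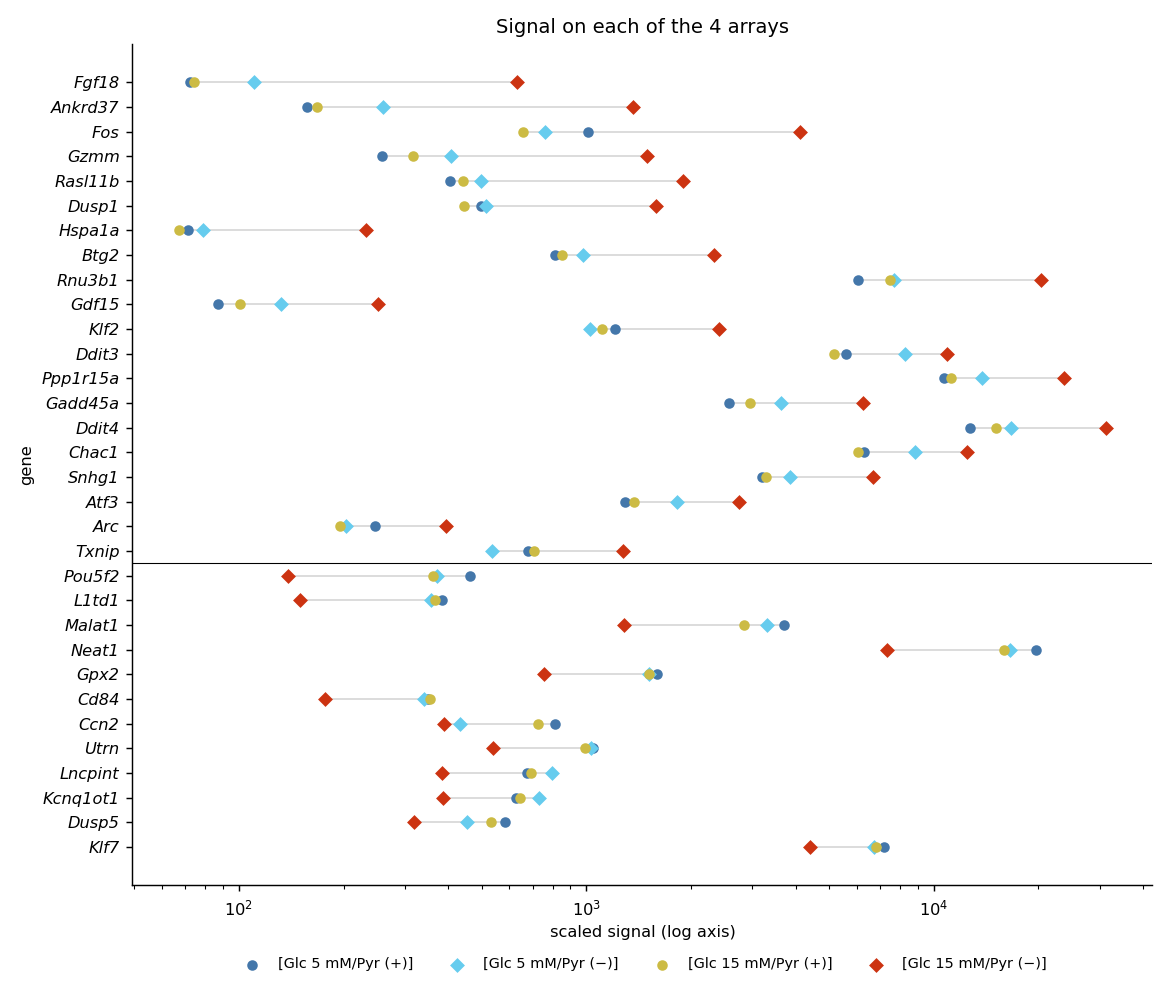
Scaled signal on each of the 4 arrays (horizontal log axis) for 20 genes that were higher and 12 genes that were lower without pyruvate at 15 mM glucose, separated by the line; circles are arrays with pyruvate and diamonds arrays without. In each of the 20 the [Glc 15 mM/Pyr (−)] array holds the highest value of the 4 and in each of the 12 the lowest, as for Fos at 4116 and Malat1 at 1287.

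Over the whole set, the [Glc 15 mM/Pyr (−)] array lay farther from the mean of the 5 mM arrays than [Glc 15 mM/Pyr (+)] did in 51 of the 51 higher genes and 79 of the 81 lower genes. The median distance from that mean was 1.26 for [Glc 15 mM/Pyr (−)] and -0.09 for [Glc 15 mM/Pyr (+)] in the higher genes, and -1.32 and -0.09 in the lower genes. The genes were selected on the difference between the 15 mM arrays, so these counts and distances are not a separate check of it. Only 25 of the higher and 42 of the lower genes had a signal over 200 on both of those arrays. At 5 mM glucose, 41 of the 51 higher genes were also above 0 and their median difference was 0.26. Of the 81 lower genes, 63 were below 0 there, with a median of -0.10. Over all 13908 genes, 47.8% were above 0 at 5 mM glucose, with a median of -0.01. One lower gene passed 2-fold at both glucose concentrations. It was Abat, the enzyme that breaks down GABA, whose 2 probes gave -1.96 and -0.07 at 15 mM glucose, so that its value rests on 1 probe. Across the 13908 genes the differences at 15 mM and 5 mM glucose had a Pearson r of 0.14 and a Spearman rho of 0.08. This is a description over genes of 4 arrays, and genes are not independent replicates.

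Among immediate-early genes a few stood out. Of 17 genes of the Egr, Nr4a and related list with signal over 200 out of 20 listed, 14 were above 0 and 2 passed 2-fold, with a median of 0.52 beside 0.03 for all 13908 genes. The share above 0 was 57.3% over all 13908 genes and 80.9% over the 1337 protein-coding genes under 5 kb, and the list had a median span of 4.02 kb. The 2 members were Btg2, an antiproliferative gene (813, 981, 849 and 2323), and Arc, an activity-regulated cytoskeletal gene (247, 203, 196 and 394). Arc lay at the threshold, with a difference of 1.01 and a signal under 200 in [Glc 15 mM/Pyr (+)], and fell below it under 5 alternative settings, at lowest 0.80. Ier2, a further immediate-early gene, lay just under the threshold at 0.996. Zfp36, whose protein destabilizes AU-rich mRNAs, gave 0.84 with signals from 161 to 287 at 15 mM glucose. The lowest member was Egr2, a regulator of myelination, at -0.27. At 5 mM glucose the median of the same 17 genes was -0.22, on the other side of 0. Of the 11 AP-1 subunits, 8 were above 0 and 2 passed 2-fold, Fos and Atf3 (1288, 1823, 1372 and 2744). Jun (39798 to 57569 at 15 mM glucose) and Jund (2613 to 3738) gave 0.53 and 0.52, and the lowest was Fosl2 at -0.46. Atf3 is also a target of ATF4, and its difference was 1.00, at the threshold.

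Feedback regulators of MAP kinases differed among themselves. Dusp1, a nuclear phosphatase of MAP kinases, had signals of 499, 513, 443 and 1585, a difference of 1.84. Dusp5, a phosphatase of ERK, had 584, 452, 532 and 319, a difference of -0.74 that was also below 0 at 5 mM glucose (-0.37). The remaining 11 members over 200 lay between these 2, and the median of the 13 was -0.05. Kruppel-like factors, a family of zinc finger transcription factors, ranged from 1.11 for Klf2 (1211, 1025, 1112 and 2401) to -0.63 for Klf7 (7193, 6722, 6823 and 4407), with 5 of 11 above 0. Over all 13908 genes, 57.3% were above 0 and the median was 0.03. Targets of SRF and YAP, which respond to actin tension, had a median of -0.13, with 13 of 17 below 0 and none at 2-fold. Their lowest member was Ccn2, a matricellular protein, at 810.1, 433, 726 and 389. In Ccn2 both arrays without pyruvate were low, and the differences were -0.90 at each glucose concentration.

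The stress arm of the ATF4 response was the list with the most members over the threshold. Of 15 members over 200 out of 16 listed, 14 were above 0, 5 were 2-fold higher and 9 were 1.5-fold higher, and the median was 0.69. The 5 were Gdf15, a stress-induced cytokine, Ddit3, which encodes CHOP, Ppp1r15a, which encodes the eIF2 phosphatase subunit GADD34, Ddit4, an inhibitor of mTORC1, and Chac1, an enzyme that degrades glutathione. Over all 13908 genes, 57.3% were above 0, 0.367% were 2-fold higher and 161 genes were 1.5-fold higher. The list had a median span of 4.40 kb. Of the 1337 protein-coding genes under 5 kb, 80.9% were above 0 and 55 were 1.5-fold higher. Ddit3 had signals of 5606, 8255, 5153 and 10891, and Chac1 had 6277, 8840.2, 6051 and 12501. In both genes the order of arrays was the same, with [Glc 15 mM/Pyr (−)] highest and [Glc 5 mM/Pyr (−)] second. Ddit4 reached 31333 from 15073, and Ppp1r15a 23694 from 11246. Atf4 itself had 2 probes, at 0.91 and 1.06, and its mean of 0.98 lay outside the threshold. The median of this list at 5 mM glucose was 0.37, with Vldlr again just below 0, and none reached 2-fold at 5 mM glucose. The lowest member was Vldlr, a lipoprotein receptor, at -0.04. Enzymes and transporters of amino acids that ATF4 also controls were closer to 0 (medians 0.15 and -0.01 over 10 genes each), and none passed 2-fold. The highest of them was Slc3a2, the heavy chain of amino acid exchangers, at 0.42, and the lowest was Slc7a11, the cystine transporter subunit, at -0.22.

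**Figure D3:**
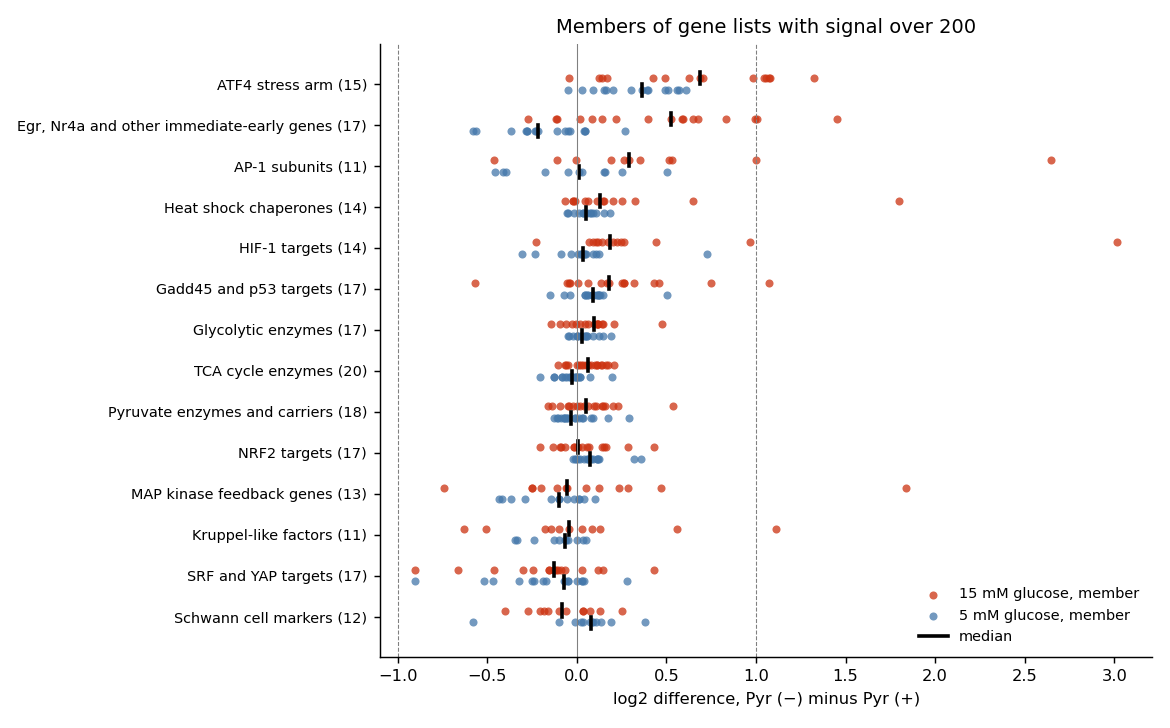
Log2 difference without pyruvate (horizontal axis) of each member with signal over 200 in 14 gene lists, with the number of members in brackets; red points are the 15 mM pair, blue points the 5 mM pair and black bars the median of each. The ATF4 stress arm has medians of 0.69 and 0.37, the immediate-early list 0.52 and -0.22, and the enzyme lists lie near 0.

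Other stress pathways had single members that stood apart from the rest of their list. Among heat shock chaperones, Hspa1a, an inducible HSP70 gene, had signals of 71.1, 78.9, 67.1 and 233, a difference of 1.80. It has a near-identical copy, Hspa1b, so its signal can include both. Dnajb1, an HSP40 co-chaperone, gave 0.65, and the median of the 14 chaperones over 200 was 0.13. Among 14 targets of HIF-1, only Ankrd37 passed 2-fold, with the vasodilator Adm next at 0.97 (517, 532, 437 and 856) and the angiogenic factor Vegfa at 0.44. The median was 0.19 and 13 of 14 were above 0, beside 0.03 and 57.3% over all 13908 genes. Gadd45a, a growth arrest gene, had 2568, 3641, 2967 and 6242, a difference of 1.07, and Zmat3, an RNA-binding target of p53, was lowest in that list at -0.57. NRF2 targets had a median of 0.00, from -0.20 for the autophagy receptor Sqstm1 to 0.43 for Osgin1. Chaperones of the endoplasmic reticulum had a median of 0.06, with the co-chaperone Dnajb9 highest at 0.56. Of all 45 lists and families, 10 had a member 2-fold higher, 1 of them only through Zfp420, whose brightest probe gave 0.38, and 0 had a member 2-fold lower. Lists hold mainly genes with a plain symbol, and of all 10621 such genes over 200, 30 were higher and 9 lower.

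Genes of glucose and pyruvate metabolism lay close to 0, with the thioredoxin-interacting gene Txnip as the main exception. Txnip, which the glucose-sensing factor MondoA induces, had signals of 681, 534, 708 and 1274. Its 2 probes gave 0.75 and 0.94 at 15 mM glucose and -0.31 and -0.39 at 5 mM glucose, so the array without pyruvate was the higher of its pair at 15 mM and the lower at 5 mM. Arrdc4, its arrestin relative, gave 0.25 and -0.08. Glycolytic enzymes had a median of 0.09 (17 genes, from -0.14 for Hk2 to 0.48 for Aldoc), TCA cycle enzymes 0.06 (20 genes, from -0.11 to 0.21), and enzymes and carriers of pyruvate 0.05 (18 genes, from -0.16 for Dlat to 0.54 for the phosphatase Pdp2). No gene of these 3 lists with signal over 200 passed 2-fold. Pdk4, a kinase that inhibits pyruvate dehydrogenase, was not well above background in [Glc 15 mM/Pyr (+)], where its signal was 12.5. In [Glc 15 mM/Pyr (−)] its signal was 79.7, a ratio of 6.36. The ratio uses the higher of the lowest signal well above background and the probe's own signal. For Pdk4 that was its own signal, so the ratio is uncertain and is not a minimum. Slc16a3, the lactate exporter MCT4, gave 0.55 and 0.56 in its 2 probes at signals under 200. Akr1b3, the aldose reductase of the polyol pathway, gave 0.03, and Parp1, the main poly(ADP-ribose) polymerase, -0.14. Actb and Gapdh, used as loading references, gave 0.01 and 0.11. The Gapdh value is the mean of 9 probes, from -0.13 to 0.55.

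Of 17 Schwann cell markers 12 had signals over 200, among them Sox10 (5110 and 5593 at 15 mM glucose), S100b (3753 and 4466) and the p75 receptor Ngfr (15658 and 16025). Schwann cell markers summed to between 57948 and 63056 on the 4 arrays, and fibroblast markers to between 97793 and 103721. Neuron markers summed to between 8216 and 11377, and endothelial markers to between 4855 and 5771. Markers of macrophages summed to between 2248 and 3170 on the 4 arrays, with the highest sum in [Glc 15 mM/Pyr (−)]. Of the 8 markers, 5 had signals over 200 and 4 of these were above 0 at 15 mM glucose. Cd68, a lysosomal protein, had the largest part in that sum (1024 and 1879), and Cd14 gave 236 and 308. Of the 3 dim markers, Lyz2 gave 79.0 and 102.0, Adgre1 31.6 and 33.7, and Ptprc, which defines leukocytes, 29.1 and 24.2. Their part in the results was not tested.

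Long non-coding RNAs lay on both sides of 0. Over all 13908 genes, 161 were 1.5-fold higher and 272 were 1.5-fold lower. Of 53 long non-coding RNAs with a plain symbol and signal over 200, 5 were 1.5-fold higher and 5 were 1.5-fold lower. The lower ones were Malat1 (3708, 3319.9, 2852 and 1287) and Neat1 (19627, 16578, 15967 and 7347), the abundant nuclear RNAs of speckles and paraspeckles, with Lncpint, Mir100hg and the imprinted antisense RNA Kcnq1ot1. All 3 probes of Lncpint were lower, from -0.93 to -0.69, and both probes of Kcnq1ot1, at -0.82 and -0.65. At 5 mM glucose Lncpint and Kcnq1ot1 were above 0, at 0.25 and 0.21. The higher ones were Snhg1 (3194, 3851, 3299 and 6706), Snhg12, Snhg5 and Zfas1, which host small nucleolar RNAs in their introns, and Gt(ROSA)26Sor. All 11 of the Snhg genes over 200 were above 0, with a median of 0.17, from 0.01 for Snhg10 to 1.02 for Snhg1. These 11 genes are short, with spans from 1663 to 7823 bases. The share above 0 was 57.3% over all 13908 genes and 80.9% over the 1337 protein-coding genes under 5 kb. Rnu3b1, a U3 small nucleolar RNA that acts in the processing of ribosomal RNA, had 6050.4, 7702, 7468 and 20372, a difference of 1.45. It belongs to a multicopy family, so which copies gave the signal is uncertain.

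**Figure D4:**
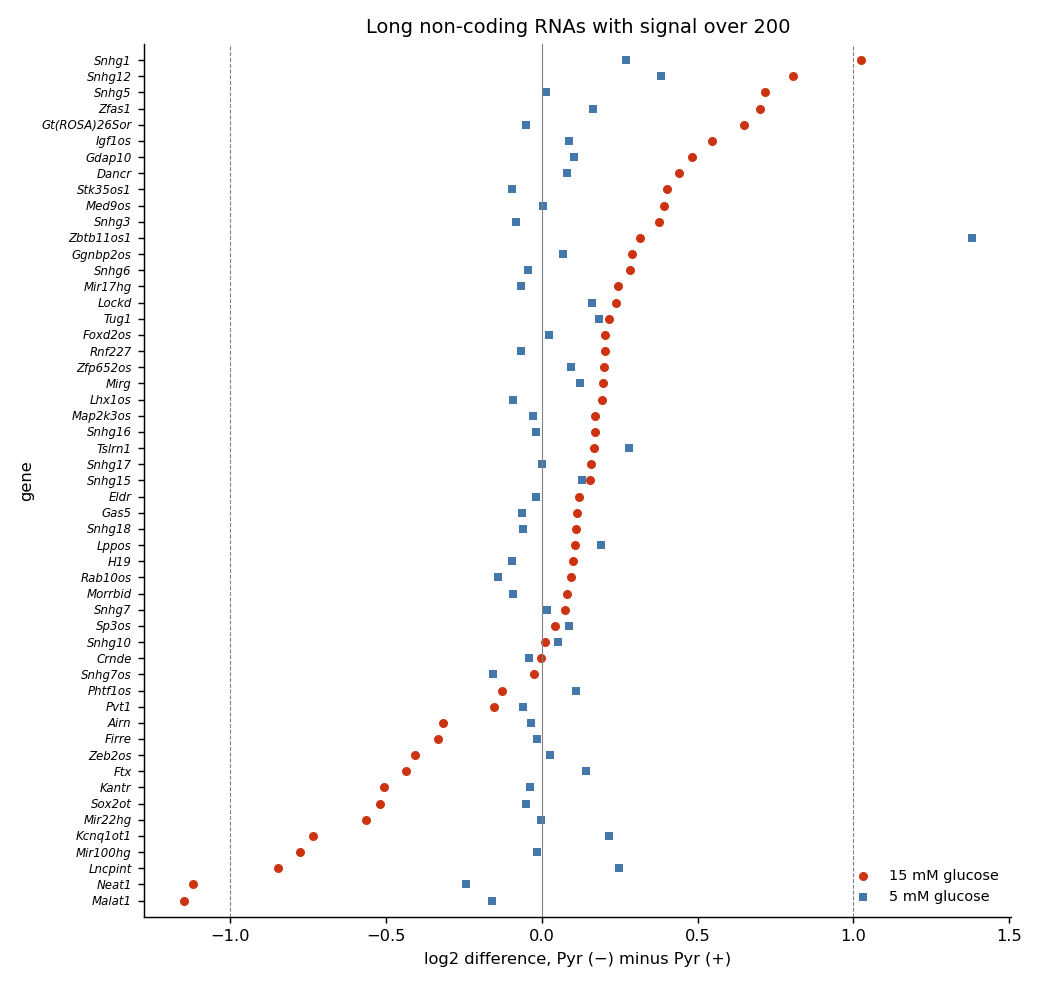
Log2 difference without pyruvate (horizontal axis) of 53 long non-coding RNAs with signal over 200, ordered by the 15 mM value; red circles are the 15 mM pair, blue squares the 5 mM pair and dashed lines 2-fold. Malat1 and Neat1 are lowest, at -1.15 and -1.12, and Snhg1 is highest, at 1.02.

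Over protein-coding genes the difference without pyruvate went down step by step with the genomic span of the gene, a relation noticed after the values were seen. The median was 0.11 in 1337 genes under 5 kb, 0.07 in 2254 genes from 10 to 20 kb, -0.10 in 1065 genes from 80 to 160 kb and -0.13 in 604 genes of 160 kb or more. At 5 mM glucose these medians were 0.00, 0.00, -0.02 and -0.02. Over all 10819 genes Spearman's rho with span was -0.44 in the 15 mM pair and -0.08 in the 5 mM pair, and -0.20 for 15 against 5 mM glucose with pyruvate. The genes share the same arrays, so rho is a description. When genes were split by signal into 3 equal groups, from dim to bright, the median was 0.13, 0.13 and 0.10 under 5 kb and -0.14, -0.14 and -0.09 at 160 kb or more. Probe GC content was related to span (rho -0.24) but little to the difference (rho 0.07), and in the lowest and highest of 3 equal groups by probe GC the medians were 0.15 and 0.08 under 5 kb against -0.15 and -0.08 at 160 kb or more. The part of RNA quality was not tested.

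**Figure D5:**
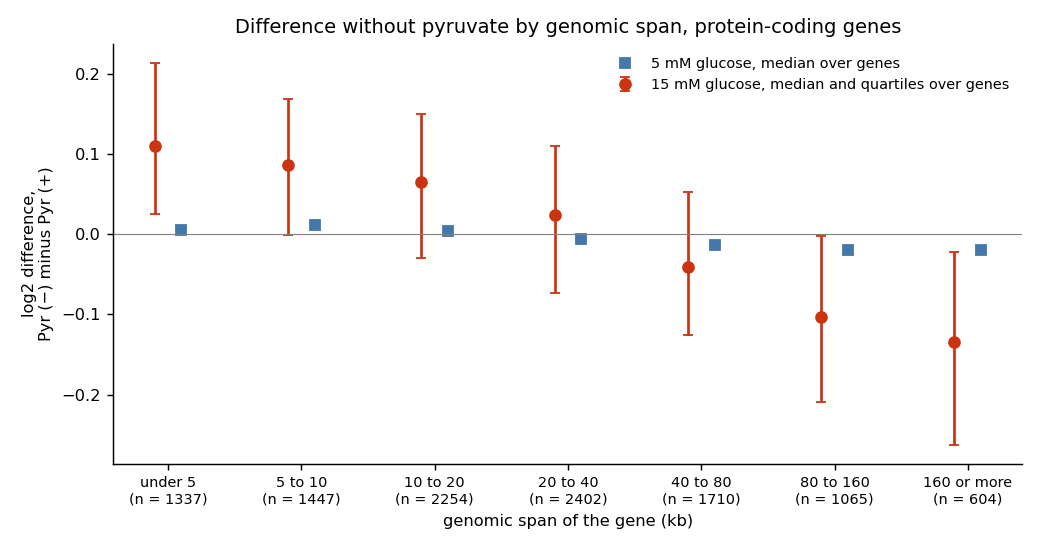
Median log2 difference without pyruvate (vertical axis) for protein-coding genes in 7 classes of genomic span (horizontal axis, kb, with the number of genes); red circles with bars are the 15 mM pair with quartiles over genes, and blue squares the medians of the 5 mM pair. The 15 mM medians go from 0.11 in the shortest class to -0.13 in the longest, and the 5 mM medians stay within 0.02 of 0.

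The spans of the genes at either end were also compared. The 31 protein-coding genes that were 2-fold higher had a median span of 3.38 kb and none exceeded 30.4 kb, beside a median of 22.2 kb for all. The 7 protein-coding genes that were 2-fold lower had a median of 25.3 kb, close to that of all. That median is the span of Tmco1, whose bright probe gave 0.16. The set also held Abat and Tenm3, whose probes differed widely, so the median is uncertain. At 1.5-fold, the 112 higher genes had a median of 5.28 kb and reached 307 kb, and the 73 lower genes had a median of 76.8 kb. Among the long genes on the lower side were Tenm3, a teneurin adhesion protein spanning 1297 kb, and Utrn, the dystrophin relative utrophin, which spans 487702 bases. Utrn had signals of 1042, 1034, 991 and 538, with the first 3 arrays together and the last low. Collagen genes, with a median span of 114 kb, had 18 of 20 below 0 and a median of -0.10, and after the median of its own span class was subtracted from each gene 14 of 20 remained below 0. Subunits of the mitochondrial ribosome (median span 7.63 kb) had 72 of 77 above 0 and a median of 0.12. Against their span classes that median was 0.04, with 50 of 77 above. Respiratory chain and ATP synthase subunits had 66 of 79 above 0 and a median of 0.11. Against their span classes that median was 0.02, with 42 of 78 protein-coding members above, and 74.8% of all protein-coding genes from 5 to 10 kb were above 0. The ATF4 stress arm kept a median of 0.62 against its span classes, with 14 of 15 above, and the immediate-early list 0.41. Histone genes went the other way: with a median span of 0.493 kb they had a median of -0.09, which was -0.20 against their span class. Cytosolic ribosomal proteins, with a median of 0.04, were below their span class in 60 of 76 genes.

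The lower genes without a plain symbol were mostly measured by probes designed on cDNA clones: 50 of these 72 had such a probe, named here by the AK series of clone records, beside 9 of 21 on the higher side. Of 520 probes over 200 designed on AK records, 58 were 2-fold lower (11.2%) and 10 were 2-fold higher (1.92%), with a median difference of -0.16. Of 13761 probes designed on curated NM mRNA records, 10 were lower (0.0727%) and 34 higher (0.247%), with a median of 0.02. At 5 mM glucose the medians were -0.03 and 0.00. Among genes with an AK probe, 9430011C21Rik had signals of 2203, 2085, 2099.9 and 664, and 6030451C04Rik had 1939, 1441, 1631 and 547. The lowest gene of all, 8430431K14Rik, had a curated non-coding record and signals of 434, 356, 337 and 76.5. In all 3 the [Glc 15 mM/Pyr (−)] array was far below the other arrays. In 104 genes with both kinds of probe over 200, the AK probe gave the lower value in 63 and the median of AK minus NM was -0.05, beside 60 and -0.03 at 5 mM glucose. In 4 of them the gap was at least 2-fold, against 0 at 5 mM glucose. They were Tenm3, Rptor, Man2a2 and Amn1. In Rptor, the mTORC1 scaffold raptor, the AK probe (chr11:119693359-119693418 of mm9) went from 407 with pyruvate to 143 without, a difference of -1.51, while the NM probe (chr11:119760596-119760655) went from 5119 to 4187, a difference of -0.29. The value of -0.90 given for Rptor as a gene is the mean of these unlike probes. Whether these clone probes report introns, alternative ends or separate transcripts was not tested.

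The remaining lower genes with a plain symbol had no list in common. Pou5f2, a POU-domain factor of the germ line, had 464, 371, 361 and 138, a difference of -1.38. L1td1, an RNA-binding protein of pluripotent cells, had 384, 357, 366 and 150.1, a difference of -1.29. Gpx2, a glutathione peroxidase, had 1599, 1515, 1518 and 757, and Cd84, a receptor of the SLAM family, had 350.01, 340.2, 355 and 177, each 2.01-fold lower. In all 4 the [Glc 15 mM/Pyr (−)] array was the lowest. The array's probes named Cd84 lie on more than 1 chromosome. The 1 measured is placed on chromosome 5, so which locus gave the Cd84 signal is uncertain. Tmco1, a calcium channel of the endoplasmic reticulum, had 2 probes that disagreed: a dim one at -2.65 and a bright one (17851 and 19890 at 15 mM glucose) at 0.16. On the higher side the same was true of Zfp420, a zinc finger gene, whose probes gave 0.38 and 2.06, while the G protein regulator Rgs2 was higher in both, by 0.97 and 2.04. The nearest genes inside the threshold were Atf3 and Arc (1.00 and 1.01) and Cd84 and Gpx2 (2.01-fold lower each), and the nearest outside were Ier2 and Atf4 (0.996 and 0.98) and Scn3b and Cd300lf (-0.95 and -0.92).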

How the data were processed

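Cy3-labelled RNA of IMS32 cells from 4 conditions was measured on 1 array each, all on 1 slide. The authors deposited scanner output of Agilent Feature Extraction 11.5.1.1, in which each spot has a background-corrected intensity that is not scaled between arrays, and a table of the same values as a ratio to a percentile of the array. Here, spots of 1 probe were averaged without controls and outliers, and each array's log2 75th percentile over probes that were not controls was subtracted. A gene is the mean of its probes well above background on both 15 mM arrays, and signals are printed on the mean 75th percentile of the 4 arrays. Names are those of the array design, of which 22527 of 31093 matched RefSeq (GRCm38.p6), which also gave the gene spans. Probe positions are in mm9.

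With 1 array per condition the threshold was 2-fold and no test was made. The genes and the 45 lists were chosen with earlier results of these data known. The named genes are the 20 highest and 20 lowest with a plain symbol and signal over 200, list members at 2-fold, the highest and lowest of each list, and 9 set genes. The others were named after their values were seen. Spot replicates give the error within an array only. The ratio for Pdk4 was set as described beside it. Alternatives were other scalings (quantile and cyclic loess with limma 3.58.1 in R 4.3.3, spike-ins), normexp with an offset of 50, the deposited ratio, signal minimums of 100 and 500, the brightest probe, and a 1.5-fold threshold. The calculation was tested on simulated data. Python 3.11.15, numpy 2.4.6 and pandas 2.3.3 were used.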

Additional observations from a re-analysis of the deposited data

Results flagged for a closer look

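In 4 genes that were 2-fold higher without pyruvate at 15 mM glucose, the 5 mM pair ran the other way by more than 0.17, which is 2 times the error of a difference from spots. The values at 5 mM glucose were -0.41 for Fos, -0.28 for Arc, -0.26 for Evpl, a gene of the cornified envelope, and -0.24 for Klf2, against 2.65, 1.01, 1.66 and 1.11 at 15 mM glucose. With 1 array per condition the difference between the glucose concentrations was not tested.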

How the results depend on the processing

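No paired analysis was possible because each condition had 1 array, and leaving out an array was not possible for the same reason. The results were recomputed under 14 alternative settings. The 132 genes over 200 at 2-fold (51 higher, 81 lower) became 80 with normexp (46 lower), 64 with a signal minimum of 500 (27 higher, 37 lower), 67 with a signal over 200 on both arrays (25 higher, 42 lower) and 433 at 1.5-fold (161 higher, 272 lower). A minimum of 100 gave 83 higher genes. Over all 21886 genes, 217 were higher and 256 lower; both together became 88 with normexp, 1480 at 1.5-fold and 2042 with no filter on background. List medians that moved by more than the spot error were those of the immediate-early list (0.40 with a minimum of 500 or on both arrays), Olfactory receptors (0.22 with a minimum of 500), the MondoA axis (0.057 with the brightest probe), small nucleolar RNA host genes (0.28 with the brightest probe) and macrophage markers (-0.046 with normexp). The difference of Tmco1 reversed to 0.16 with its brightest probe. The lowest difference over the settings was 2.18 for Fgf18, 2.58 for Ankrd37, 2.51 for Fos and 1.06 for Hspa1a. Fgf18 was therefore not the largest under every setting. Atf3 and Arc fell below 2-fold under 6 and 5 settings, at lowest 0.95 and 0.80. Normexp also took Arl4d, Gdf15, Slc23a3, Tenm3, Cd84, Gpx2, Rgs2, Zfp420 and Abat below it, quantile scaling Cd84 and Gpx2 (-0.99 each), spike-in scaling Snhg1 (0.99), and the brightest probe Rgs2, Zfp420 and Abat (-0.07). Scaling moved the median of all genes to between -0.01 and 0.03. The span relation (-0.25 between the longest and the shortest class) ranged from -0.26 to -0.23, and the gap between AK and NM probes (-0.19) from -0.19 to -0.16; both were added after seeing the data. Signals near background limit the dim genes, where the SD of the difference was 0.44.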
